A study of Mus musculus with 6 samples.

Results

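The genes described here encode the proteasome of the mouse proximal jejunum, and they were compared between ob/ob and wild type (WT) mice. Members were the rows of the count table whose gene symbol starts with Psma to Psmg followed by a digit, leaving out Psmb8, Psmb9 and Psmb10, the inducible subunits of the immunoproteasome. This rule found 46 of 23420 genes, and 43 of them passed the filter on low counts used for 13168 tested genes. Of the other 3, Psma8 encodes a subunit of the testis, Psmb11 one of the thymus, and Psmc3ip is not a proteasome component.

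Total RNA from a washed piece of whole proximal jejunum was sequenced in bulk. One group was ob/ob, male mice that lack functional leptin and overeat, and the other was WT C57BL/6J males, both bought from the same breeder and not described as littermates. Each group had 3 libraries, and each library pooled equal amounts of RNA from 2 jejuna, so every p-value measures the spread between pools. Leptin loss, overeating and obesity came together in the ob/ob group and cannot be told apart, and the age of the animals used for sequencing was not stated in the sources used. In the whole tissue, fewer cells of a type and less RNA per cell cannot be told apart either.

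The proteasome is the protease that degrades proteins tagged with ubiquitin. Its 20S core is a barrel of stacked rings, with outer alpha rings that gate the entrance and inner beta rings that hold the catalytic sites Psmb5, Psmb6 and Psmb7. The 19S particle docks on the core, and it consists of a base, whose ATPases unfold the substrate, and a lid, which removes the ubiquitin chain. Activators and an inhibitor can replace or oppose the 19S particle, and dedicated chaperones put the rings together. In the small intestine, whose epithelium renews continuously and absorbs food, the proteasome is present in every cell.

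The libraries held 14661981 to 18286080 counts, of which 0.260% to 0.314% fell on the members. Across genes, which do not replicate each other, log2 values of pairs of libraries had a Pearson's r of 0.993 to 0.994 in ob/ob and of 0.989 to 0.991 in WT. The count of Lep, the leptin gene, was 23, 0 and 20 in ob/ob against 7, 29 and 6 in WT libraries, which checks no label since the ob mutation need not remove the transcript. For the members, 2 libraries stood apart. The first ob/ob library was the highest of all 6 for 31 of 43 tested members, and the second WT library was the lowest for 34. That WT library also held the most RNA of fat cell markers, with a summed 138 CPM (a count scaled to its library total) against 4.32 to 27.2 CPM in the other libraries. The number of members past the threshold and the medians of the members are given with and without these libraries. The other gene lists, the ratios and the counts of genes without overlap were computed with all 6 libraries only. Values of single genes are from all 6 libraries unless stated.

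Transcripts of the proteasome were slightly more abundant in ob/ob jejunum. Of 43 tested members, 40 had a positive log2 fold change of ob/ob over WT, and the median was 0.19 (1.14-fold) against -0.01 over all tested genes. Past the threshold of an adjusted p of 0.05 in the quasi-likelihood F-test of edgeR, 4 members were higher in ob/ob (Psmb4, Psma7, Psma4 and Psmb3) and 0 were lower, where 3.77% of all tested genes were called higher and 1.91% lower. All 4 encode subunits of the 20S core. An unadjusted p under 0.05 was reached by 25 members in the higher direction, with a background of 13.2%, and by 0 in the lower direction, with a background of 12.7%. The 3 ob/ob libraries lay above all WT libraries for 29 members (background 15.8%) and below them for 0 (background 16.2%). By family, the median log2 fold change was 0.27 for 7 tested alpha subunits, 0.26 for 7 beta subunits, 0.20 for 6 ATPases of the base, 0.15 for 3 other base subunits, 0.16 for 8 lid subunits, 0.18 for 5 activators and inhibitors, and 0.15 for 7 chaperones.

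These values are CPM scaled by the trimmed mean of M-values (TMM) of each library, and the calls depended on that scaling and on the libraries included. Scaled by library size alone, all tested genes moved down to a median of -0.13 and the members to 0.07, so that 0 members passed the threshold, 34 of 43 were positive, and 5 did not overlap between groups against a background of 6.34%. Over all tested genes, 496 were called higher and 251 lower with TMM, and 328 higher and 1407 lower with library size alone. Under library size alone the log2 fold change was 0.24 for Psmb4 (edgeR adjusted p 0.0537), 0.26 for Psma7 (0.0694) and 0.16 each for Psma4 and Psmb3 (0.148 and 0.156). The median of the members stood above the median of all tested genes by 0.20 under either scaling. A change of scaling moves all genes by nearly the same amount, so this gap could hardly have differed. Over all tested genes, each fit with 1 library left out also called fewer genes higher than the 496 with all libraries. They numbered 106 to 230 without 1 ob/ob library and 224 to 412 without 1 WT library. The member counts of these fits therefore cannot tell dependence on 1 library from this general loss of calls. With the first, the second or the third ob/ob library left out, 0 members passed the threshold, as also without the second WT library, and 2 passed without the first WT library (Psma7 and Psmb4) or the third (Psmb3 and Psmb4). The median of the members was 0.16 without the first ob/ob library, 0.15 without the second WT library and 0.12 without both, with -0.02, -0.01 and -0.02 over all tested genes.

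**Figure D1:**
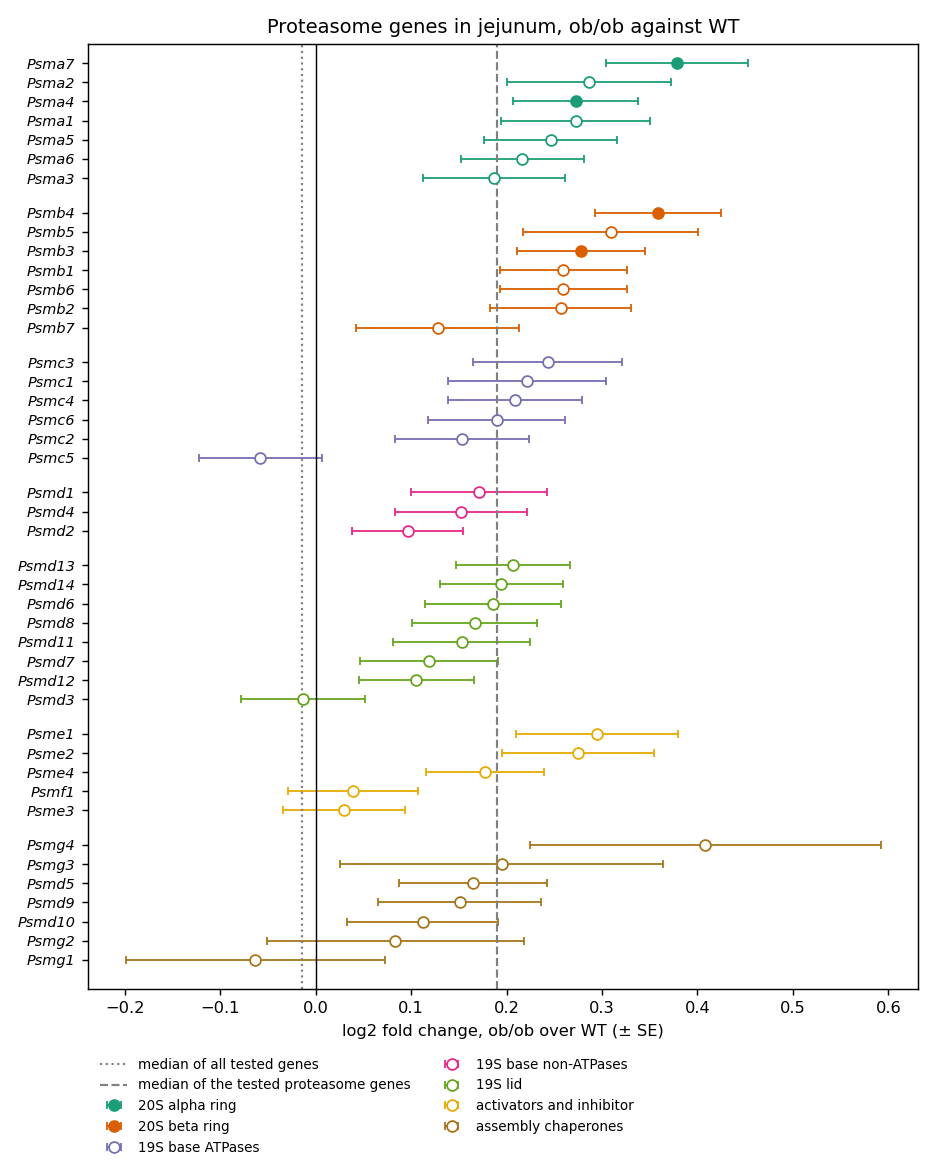
Log2 fold change of ob/ob over WT (x axis, ± SE, n = 3 libraries a group) for the 43 tested proteasome genes, ordered within each family. Filled points passed an adjusted p of 0.05 in edgeR, the dotted line marks the median of all tested genes (-0.01) and the dashed line that of the proteasome genes (0.19). The 14 genes of the 20S core lie to the right of 0, and Psmc5, Psmd3 and Psmg1 lie to its left.

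The alpha rings gate the barrel, and the log2 fold changes of their 7 tested genes lay close together, from 0.19 to 0.38. Psma7 had 93.0, 81.0 and 84.4 CPM in ob/ob against 70.5, 61.5 and 66.6 CPM in WT libraries. Its lowest ob/ob value was above its highest WT value, and the log2 fold change was 0.38 ± 0.07 (SE) with an edgeR adjusted p of 0.0255. On the mouse build GRCm38, Psma7 spans 180036374 to 180042433 of chromosome 2 on the minus strand. Psma4 had 116, 112 and 107 CPM in ob/ob against 94.0, 85.8 and 96.9 CPM in WT. The groups did not overlap, and the log2 fold change was 0.27 ± 0.07 (SE) with an edgeR adjusted p of 0.0472. Psma4 spans 54950790 to 54958030 on the plus strand of chromosome 9, where an exon of AY074887 on the opposite strand overlaps it, and reads of both cannot be told apart if counting did not use strand. The other 5 tested alpha subunits, Psma1, Psma2, Psma3, Psma5 and Psma6, had log2 fold changes of 0.19 to 0.29 and did not pass the threshold, with edgeR adjusted p of 0.0686 to 0.156. All 7 reached an unadjusted p under 0.05, and Psma3 was the 1 whose groups overlapped, since 64.4 CPM in the second ob/ob library fell below 64.9 CPM in the third WT library.

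The beta rings carry the catalytic sites and structural subunits that hold the rings together. Psmb4, a structural subunit, had 120.2, 110.3 and 111 CPM in ob/ob against 89.1, 83.4 and 93.7 CPM in WT libraries. No ob/ob library came near the WT range, and the log2 fold change of 0.36 ± 0.07 (SE), 1.28-fold, had the smallest p of all members with an edgeR adjusted p of 0.0198. Psmb4 lies on chromosome 3, from 94884093 to 94886961 on the minus strand. Psmb3, also structural, had 63.3, 58.1 and 58.6 CPM in ob/ob against 47.8, 47.5 and 53.1 CPM in WT. The third WT library stood closest to the ob/ob range without entering it, and the log2 fold change was 0.28 ± 0.07 (SE) with an edgeR adjusted p of 0.0482. Psmb3 spans 97703399 to 97713500 on the plus strand of chromosome 11. Psmb1 and Psmb2, the remaining structural subunits tested, had log2 fold changes of 0.26 each without overlap between groups, at edgeR adjusted p of 0.0552 and 0.0727.

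The 3 constitutive catalytic subunits did not pass the threshold. Psmb5, which cleaves after hydrophobic residues, had 34.2, 31.8 and 28.1 CPM in ob/ob against 25.0, 23.4 and 27.4 CPM in WT. The third libraries of the groups were close together but the ranges did not overlap, with a log2 fold change of 0.31 ± 0.09 (SE) and an edgeR adjusted p of 0.0773. Psmb6, which cleaves after acidic residues, had 88.5, 84.1 and 79.6 CPM in ob/ob against 73.7, 65.9 and 71.0 CPM in WT. These ranges were apart as well, with a log2 fold change of 0.26 ± 0.07 (SE) and an edgeR adjusted p of 0.0544. Psmb7, which cleaves after basic residues, had 69.5, 64.3 and 61.9 CPM in ob/ob against 57.6, 54.3 and 67.0 CPM in WT. The third WT library lay above 2 ob/ob libraries, and the log2 fold change of 0.13 ± 0.09 (SE) was the smallest of the 20S core, with an edgeR adjusted p of 0.372. RefSeq lists pseudogenes named after Psma5, Psmb5, Psmb6 and Psmb7, so the reads counted for these genes are uncertain. Pseudogenes under other names were not searched for, in these or other members. Exons of Psmb5 also overlap Mir686 on the same strand, and exons of Psmb7 overlap Nek6 on the opposite strand.

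**Figure D2:**
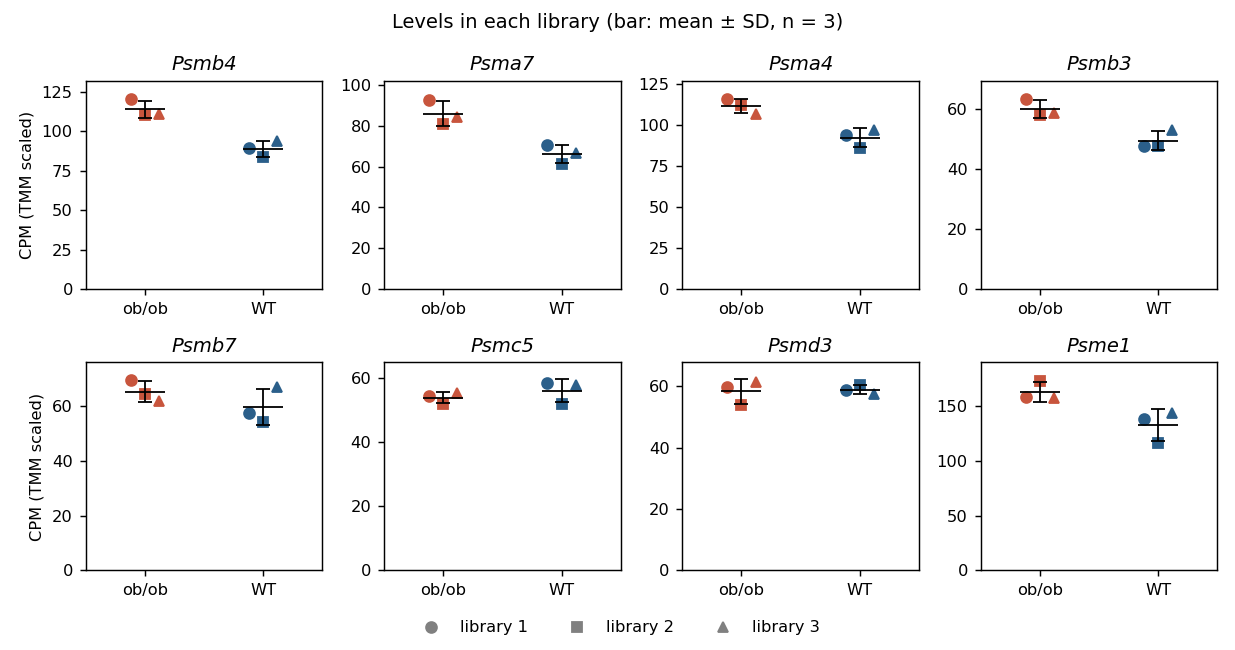
TMM-scaled CPM (y axis, from 0) of 8 proteasome genes in each library, with ob/ob in red and WT in blue. Marker shape gives the library number and the horizontal bar the mean ± SD (n = 3). The ob/ob and WT libraries are apart for Psmb4, Psma7, Psma4, Psmb3 and Psme1 and overlap for Psmb7, Psmc5 and Psmd3.

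The start regions of the 4 genes past the threshold are shown, with that of the ATPase Psmc5 for contrast, whose groups overlapped. The sequences are RefSeq windows on GRCm38.p6, from 250 bases before to 50 bases after the annotated start, written 5′ to 3′ on the strand of the gene. They cover chr2:180042415-180042714 (minus strand) for Psma7, chr3:94886909-94887208 (minus strand) for Psmb4, chr9:54950609-54950908 (plus strand) for Psma4, chr11:97703184-97703483 (plus strand) for Psmb3 and chr11:106255935-106256234 (plus strand) for Psmc5. Capitals mark matches, on either strand, to the CCAAT box, to CCGGAA, the core that ETS factors bind, and to TGACNNNGC, the core of the antioxidant response element that Nfe2l1 and Nfe2l2 bind.
Psma7: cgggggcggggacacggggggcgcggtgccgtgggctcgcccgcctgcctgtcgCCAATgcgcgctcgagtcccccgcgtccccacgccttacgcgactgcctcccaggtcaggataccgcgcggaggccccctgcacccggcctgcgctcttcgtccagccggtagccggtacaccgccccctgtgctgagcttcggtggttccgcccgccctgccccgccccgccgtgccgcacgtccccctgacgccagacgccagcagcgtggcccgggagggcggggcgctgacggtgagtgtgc
Psmb4: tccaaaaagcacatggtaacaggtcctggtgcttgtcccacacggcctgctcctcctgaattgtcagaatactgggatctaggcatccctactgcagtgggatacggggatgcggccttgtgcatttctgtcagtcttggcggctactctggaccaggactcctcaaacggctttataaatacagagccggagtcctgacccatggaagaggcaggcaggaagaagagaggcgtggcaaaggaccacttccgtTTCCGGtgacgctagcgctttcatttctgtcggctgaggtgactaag
Psma4: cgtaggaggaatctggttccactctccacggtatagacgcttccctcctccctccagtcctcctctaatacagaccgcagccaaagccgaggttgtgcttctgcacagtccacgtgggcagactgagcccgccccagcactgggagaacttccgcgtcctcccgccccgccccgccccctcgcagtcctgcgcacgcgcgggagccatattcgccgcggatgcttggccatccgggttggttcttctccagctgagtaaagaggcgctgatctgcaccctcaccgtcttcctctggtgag
Psmb3: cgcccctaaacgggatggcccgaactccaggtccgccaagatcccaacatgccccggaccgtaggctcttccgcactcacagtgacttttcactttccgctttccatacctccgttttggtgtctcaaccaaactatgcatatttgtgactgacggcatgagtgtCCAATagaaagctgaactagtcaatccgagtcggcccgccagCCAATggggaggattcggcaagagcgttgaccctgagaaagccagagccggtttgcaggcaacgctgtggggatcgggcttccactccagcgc
Psmc5: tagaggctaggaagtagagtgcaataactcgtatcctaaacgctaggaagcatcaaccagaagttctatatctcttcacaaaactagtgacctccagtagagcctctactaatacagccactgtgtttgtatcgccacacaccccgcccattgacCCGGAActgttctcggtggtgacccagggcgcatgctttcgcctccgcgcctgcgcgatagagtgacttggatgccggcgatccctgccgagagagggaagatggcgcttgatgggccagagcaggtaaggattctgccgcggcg

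No motif was common to the windows of all 4 called genes. Psma7 held 1 CCAAT box and Psmb3 held 2, Psmb4 held the ETS core on the reverse strand 4 bases after the start, Psmc5 held it 95 bases before the start, and Psma4 held none of the 3 motifs. RefSeq gave 39 windows for 36 of 43 tested members, and a gene with several starts was counted as holding a motif if any of its windows did. The ETS core was in 20 of 36 members (55.6%), in 30.1% of tested genes with a window and in 16.7% of all genes with one. Counted by window, these shares were 53.8%, 25.8% and 14.9%. The ETS core was found in 10 of 14 genes of the 19S particle and in 4 of 11 of the 20S core. The CCAAT box was in 33.3% of members and 42.7% of tested genes, and the antioxidant response core in 16.7% and 17.1%. In the members, matches overlapped only with others of the same motif, CCAAT boxes in Psmd14 and ETS cores in Psmd4. These are matches of letters and not measured sites.

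The base of the 19S particle holds a ring of 6 ATPases, which unfold the substrate and thread it into the core. None of the 6 passed the threshold, with log2 fold changes of -0.06 to 0.24. Psmc3, with the smallest p among them, had 108, 91.3 and 94.7 CPM in ob/ob against 84.8, 77.4 and 86.2 CPM in WT. The groups did not overlap, with a log2 fold change of 0.24 ± 0.08 (SE) and an edgeR adjusted p of 0.0945, and its exons overlap Slc39a13 on the opposite strand. Psmc5 had 54.3, 52.1 and 55.3 CPM in ob/ob against 58.4, 52.0 and 57.8 CPM in WT. Here 2 of 3 WT libraries were above every ob/ob library, and the log2 fold change was -0.06 ± 0.06 (SE) with an edgeR adjusted p of 0.611. Psmc1, Psmc2, Psmc4 and Psmc6 had log2 fold changes of 0.15 to 0.22.

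The base also holds Psmd1 and Psmd2, large scaffolds that receive ubiquitin and its carriers, and Psmd4, a ubiquitin receptor. Psmd1 had 117, 106 and 104 CPM in ob/ob against 103, 90.9 and 96.2 CPM in WT. The third ob/ob library was just above the first WT library, with a log2 fold change of 0.17 ± 0.07 (SE) and an edgeR adjusted p of 0.169. Exons of Psmd1 overlap Gm21972 on the same strand. The log2 fold change was 0.15 for Psmd4, whose groups did not overlap, and 0.10 for Psmd2, whose groups did, and the value of Psmd2 was -0.02 when scaled by library size alone.

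The lid removes the ubiquitin chain through Psmd14, its metalloprotease, and its other subunits hold that enzyme in place. Psmd13 had 66.6, 64.8 and 67.1 CPM in ob/ob against 57.1, 54.3 and 60.5 CPM in WT, the smallest p of the lid. The libraries of each group lay close together and apart from the other group, with a log2 fold change of 0.21 ± 0.06 (SE) and an edgeR adjusted p of 0.0727, and its exons overlap Sirt3 on the opposite strand. Psmd14 had a log2 fold change of 0.19 ± 0.06 (SE) without overlap between groups and an edgeR adjusted p of 0.101. Psmd6, Psmd8, Psmd11, Psmd7 and Psmd12 ranged from 0.11 to 0.19. Psmd3, a scaffold of the lid, had 59.9, 53.8 and 61.3 CPM in ob/ob against 58.8, 60.5 and 57.4 CPM in WT. The groups were interleaved, with a log2 fold change of -0.01 ± 0.07 (SE) and an edgeR adjusted p of 0.917, and its exons overlap Gm12356 on the opposite strand.

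The genes of the 20S core stood higher in ob/ob relative to those of the 19S particle. For each library the mean log2 CPM of the 14 tested genes of the 20S core was taken, relative to its mean over the 6 libraries, and likewise for the 17 genes of the 19S particle. For the 20S core this level was 0.22, 0.10 and 0.08 in ob/ob against -0.11, -0.24 and -0.05 in WT libraries. For the 19S particle it was 0.13, 0.04 and 0.05 in ob/ob against -0.06, -0.14 and -0.03 in WT. The first ob/ob library was the highest and the second WT library the lowest for both, and neither overlapped between groups. The difference of the 20S core minus the 19S particle, which does not depend on how libraries are scaled, was 0.08, 0.07 and 0.03 in ob/ob against -0.05, -0.10 and -0.03 in WT. Scaled by library size alone, the level of the 20S core stayed apart between groups by a small margin (lowest ob/ob library -0.0069, highest WT library -0.010), while that of the 19S particle overlapped, as did 6 of the 7 families. The difference of 20S and 19S did not overlap, although the third libraries of the groups lay close together. It is a description of these 6 libraries, since it was chosen with the values known. The median log2 fold change was 0.27 for the 20S core and 0.17 for the 19S particle, and it was 0.23 and 0.12 without the first ob/ob library, 0.21 and 0.13 without the second WT library and 0.17 and 0.10 without both.

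**Figure D3:**
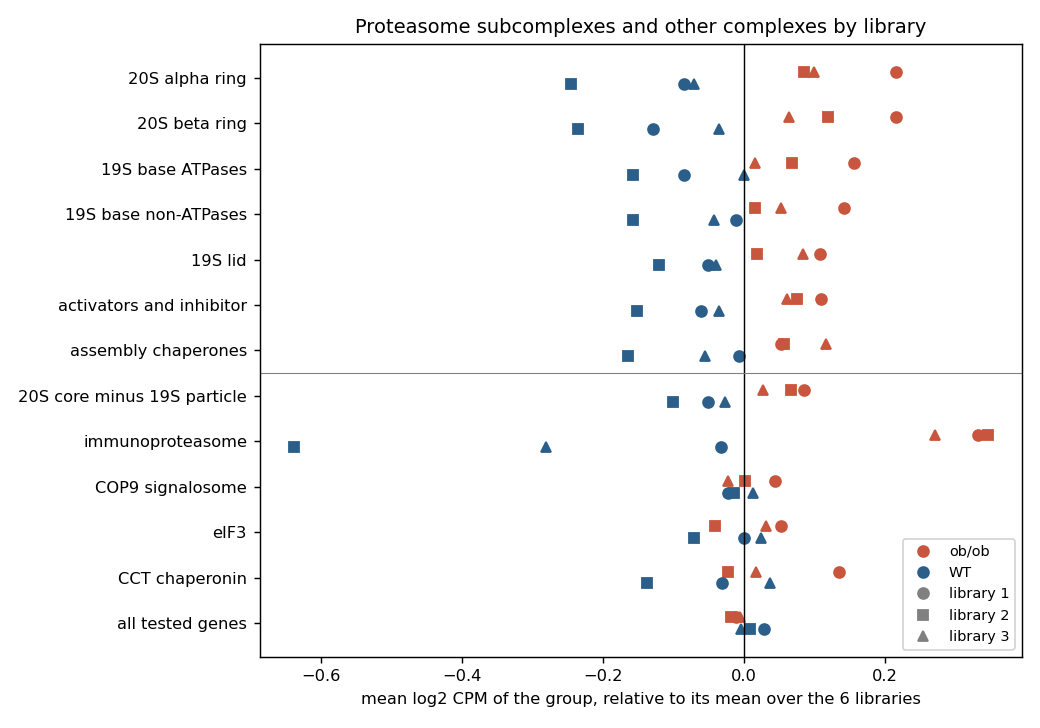
Mean TMM-scaled log2 CPM of each family of proteasome genes in each library, relative to its mean over the 6 libraries (x axis), with ob/ob in red, WT in blue and marker shape for the library number. Below the line are the 20S core minus the 19S particle, the immunoproteasome genes, 3 other complexes and all tested genes. All 7 proteasome families are apart between groups with this scaling (6 of 7 overlap with library size alone), and the COP9 signalosome, eIF3 and the CCT chaperonin overlap.

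The length of a transcript moved with the fold change over all genes. Genes under 1000 exonic bases had a median log2 fold change of 0.06 and those of 5000 or more had -0.06, and the median length was 1172.5 exonic bases for the 20S core, 1989 for the 19S particle and 3348 for all tested genes with a length. From 1000 to 1500 exonic bases, 7 genes of the 20S core had a median of 0.27 and 3 of the 19S particle had 0.19, against 0.04 for all 1004 genes of that length. From 2000 to 3000 bases, 2 genes of the 20S core had 0.24 and 7 of the 19S particle 0.15, against 0.0014 for all 2578 genes.

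Psme1 and Psme2 encode the activator that interferon-gamma induces, which opens the core without ATP and favours the production of peptides for antigen presentation. Psme1 had 158, 173 and 157 CPM in ob/ob against 138, 116 and 143 CPM in WT. The groups did not overlap, with a log2 fold change of 0.29 ± 0.08 (SE) and an edgeR adjusted p of 0.0719, and its exons overlap Emc9 on the opposite strand. Psme2 had 246, 249.7 and 234 CPM in ob/ob against 216, 178 and 209 CPM in WT. Its second WT library was far below the other 2, the groups did not overlap, and the log2 fold change was 0.27 ± 0.08 (SE) with an edgeR adjusted p of 0.0727.

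The other activators and the inhibitor ranged more widely. Psme4, a large nuclear activator, had 227, 212 and 209 CPM in ob/ob against 187, 185 and 200.4 CPM in WT. These did not overlap, with a log2 fold change of 0.18 ± 0.06 (SE) and an edgeR adjusted p of 0.114. Psme3, the nuclear relative of Psme1 and Psme2, had 77.8, 69.5 and 72.8 CPM in ob/ob against 68.6, 74.6 and 72.5 CPM in WT. Its groups were interleaved, and its log2 fold change of 0.03 ± 0.06 (SE), with an edgeR adjusted p of 0.804, became -0.09 when scaled by library size alone. Psmf1, an inhibitor of the core in the test tube, had 25.4, 24.3 and 26.5 CPM in ob/ob against 25.2, 24.7 and 24.3 CPM in WT. It overlapped likewise, with a log2 fold change of 0.04 ± 0.07 (SE) and an edgeR adjusted p of 0.753, and the value was -0.08 when scaled by library size alone.

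Chaperones for the alpha rings (Psmg1 to Psmg4) and for the base (Psmd5, Psmd9 and Psmd10) bind the subunits during assembly and leave the finished particle. None of the 7 passed the threshold or reached an unadjusted p under 0.05. Psmg4 had 2.77, 3.10 and 3.51 CPM in ob/ob against 2.71, 2.18 and 2.18 CPM in WT. It was the least abundant member tested, and its log2 fold change of 0.41 ± 0.18 (SE) was the highest value among the members but the least precise, with an edgeR adjusted p of 0.20. Psmd5, Psmd9 and Psmd10 also did not overlap between groups, with log2 fold changes of 0.16, 0.15 and 0.11. Psmg3 (0.19), Psmg2 (0.08) and Psmg1 (-0.06) overlapped, and those of Psmg2 and Psmd10 were negative, -0.03 and -0.0048, when scaled by library size alone. Exons of Psmg3 overlap Gm26938 on the same strand.

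Levels between genes were compared as mean CPM per 1000 exonic bases in WT, on the gene models of GENCODE M21, which depends on how completely the ends are annotated. The median was 55.4 for the alpha subunits, 53.2 for the beta subunits, 41.5 for the ATPases, 35.7 for the other base subunits, 27.9 for the lid and 4.74 for the chaperones. The highest level was that of Psme2 at 206 and the lowest that of Psmg4 at 4.24 CPM per 1000 exonic bases. Within the ATPases, which fill 1 place each in the ring, levels ranged 1.80-fold, from 25.4 for Psmc2 to 45.7 for Psmc1. Within the beta ring they ranged 3.86-fold, from 22.8 for Psmb1 to 88.0 for Psmb6. This order rests on the lengths, 3427 exonic bases for Psmb1 and 798 for Psmb6. Before the division their mean WT levels were 78.1 and 70.2 CPM. The tested members lie on 16 chromosomes, and their median coefficient of variation between libraries was 5.33% in ob/ob and 6.37% in WT.

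Psmb9, Psmb10 and Psmb8 are the inducible catalytic subunits that take the places of Psmb6, Psmb7 and Psmb5 in the immunoproteasome. Psmb9 had 60.9, 61.8 and 59.6 CPM in ob/ob against 42.9, 27.2 and 32.2 CPM in WT, with a log2 fold change of 0.83 ± 0.14 (SE) and an edgeR adjusted p of 0.0147. Psmb8 had 154, 154 and 141 CPM in ob/ob against 112, 62.9 and 93.7 CPM in WT, with a log2 fold change of 0.74 ± 0.17 (SE) and an edgeR adjusted p of 0.0399. Psmb10 had a log2 fold change of 0.25 ± 0.08 (SE) and did not pass the threshold, with an edgeR adjusted p of 0.101. The spread among WT libraries was wider for Psmb8 and Psmb9 than among ob/ob libraries, and no group overlapped.

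Ratios within a library do not depend on its scaling. The count of Psmb9 over that of Psmb6 was 0.688, 0.735 and 0.749 in ob/ob against 0.583, 0.412 and 0.453 in WT libraries. The count of Psmb8 over that of Psmb5 was 4.52, 4.86 and 5.02 in ob/ob against 4.47, 2.69 and 3.42 in WT. Neither pair overlapped, although the first WT library came close to the ob/ob range for Psmb8 over Psmb5. For Psmb10 over Psmb7 the ratio was 2.07, 2.27 and 2.29 in ob/ob against 2.29, 1.93 and 1.87 in WT, and the groups overlapped.

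Partners of the proteasome that are not members were counted on a list chosen with earlier results known. Of 11 tested, 0 passed the threshold, and the median log2 fold change was 0.08. The smallest p was that of Txnl1, a thioredoxin-like protein bound to the 19S particle, at 0.27 ± 0.07 (SE) and an edgeR adjusted p of 0.0568. Adrm1, a ubiquitin receptor of the base, had 53.9, 47.0 and 55.4 CPM in ob/ob against 44.6, 43.8 and 45.9 CPM in WT, a log2 fold change of 0.22 with an edgeR adjusted p of 0.0998. Pomp, the chaperone that completes the beta ring, had 79.1, 74.0 and 73.9 CPM in ob/ob against 68.6, 65.4 and 66.9 CPM in WT, a log2 fold change of 0.18 with an edgeR adjusted p of 0.0954. The groups did not overlap for either gene.

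The steps upstream of the proteasome were counted on such lists as well. Of 13 tested genes for ubiquitin, its activating enzymes and shuttle factors, 1 passed the threshold, and the median was -0.02. That gene was Rad23b, a shuttle that carries tagged proteins to the base, with 128, 130.1 and 128 CPM in ob/ob against 111, 104 and 114 CPM in WT, no overlap, a log2 fold change of 0.23 ± 0.06 (SE) and an edgeR adjusted p of 0.0496. Of 9 tested genes for Vcp, the segregase that extracts tagged proteins, and its cofactors, 0 passed, with a median of 0.08 and 7 positive, and Plaa had the smallest p at 0.21 with an edgeR adjusted p of 0.131. Of 12 tested genes around Nfe2l1, the factor that drives proteasome genes when the proteasome is inhibited, 0 passed, with a median of -0.0046, and Maff had the smallest p at 0.32 with an edgeR adjusted p of 0.128. Nfe2l1 itself had 87.9, 89.2 and 83.2 CPM in ob/ob against 94.7, 94.9 and 88.3 CPM in WT. Its groups overlapped, with a log2 fold change of -0.09 ± 0.06 (SE) and an edgeR adjusted p of 0.342.

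Other large complexes of the cell gave a further comparison. Of the COP9 signalosome, whose subunits are related to the lid, 0 of 9 tested genes passed, with a median of 0.01, and Cops5 had the smallest p at 0.21 with an edgeR adjusted p of 0.147. Of eIF3, a translation initiation complex with a like architecture, 0 of 12 passed, with a median of 0.02, and Eif3c had the smallest p at 0.22 with an edgeR adjusted p of 0.0531. Of the CCT chaperonin, a folding machine of stacked rings, 0 of 8 passed, with a median of 0.09, and Cct6a had the smallest p at 0.18 with an edgeR adjusted p of 0.153. The ob/ob libraries lay above every WT library for 3 of 9, 2 of 12 and 1 of 8 of these genes, and for 29 of 43 tested members of the proteasome, where 15.8% of all tested genes did so. Scaled by library size alone, 5 of 43 members stayed apart, with a background of 6.34%.

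Markers of cell types moved between the groups beside these values. All 10 markers of the epithelium were positive, with a median log2 fold change of 0.32, and 3 passed the threshold. They were Krt20, a keratin of mature cells, at 0.38 (edgeR adjusted p 0.0313), Fabp2, the intestinal fatty acid binding protein, at 0.54 (0.0345), and Alpi, intestinal alkaline phosphatase, at 0.44 (0.0496). Their summed level was 30583 to 33696 CPM in ob/ob against 23811 to 25946 CPM in WT. All 6 markers of the response to interferon-gamma rose, with a median of 1.75 and a summed level of 816 to 1252 CPM in ob/ob against 328 to 474 CPM in WT. The summed markers were lower in ob/ob for fibroblasts, with a median of -0.29 (317 to 378 against 399 to 422 CPM), and for endothelium, with a median of -0.28 (53.5 to 60.7 against 71.3 to 77.1 CPM). Fat cell markers, with 4 of 5 tested genes negative, summed to 4.32 to 8.69 CPM in ob/ob against 21.1 to 138 CPM in WT. The summed ranges overlapped for smooth muscle, B cells, T cells, myeloid cells and proliferation. Of 6 pancreas markers, Cpa1, Pnlip, Prss2 and Amy2a5 were at 0 in every library. The part of these shifts in the proteasome result was not tested.

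**Figure D4:**
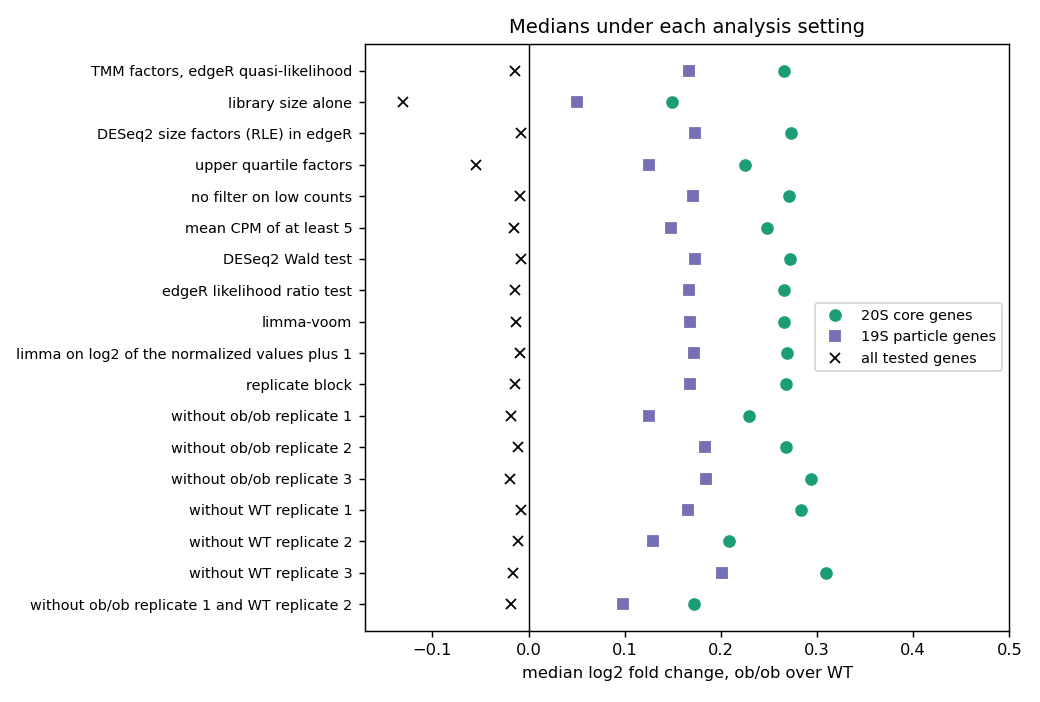
Median log2 fold change of ob/ob over WT (x axis) for 14 genes of the 20S core (circles), 17 of the 19S particle (squares) and all tested genes (crosses) under each analysis setting. The 20S core lies right of the 19S particle in every setting drawn, and all 14 core genes were positive in each of them. The medians ran from 0.15 and 0.05 with library size alone to 0.31 and 0.20 without the third WT library. Scaling moves both groups of genes nearly alike, so settings that differ in scaling alone could hardly change their order.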

How the data were processed

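RNA of whole proximal jejunum was sequenced from 3 ob/ob and 3 WT libraries, each a pool of 2 jejuna. The deposited counts, whole numbers of reads for each gene symbol, were made by the authors with TopHat2 on mm10 and HTSeq 0.6p1, with edgeR 3.4.2 per the submitters' processing notes. The strand setting of that counting was not stated in any source used. The deposited normalized signal, the counts times 1 factor per library made by the authors, served 1 alternative. The authors' deposited table of fold changes and p-values was not used, nor were 36 columns of values per sample, 12 of them of other samples.

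Genes had to exceed 1 CPM in 3 or more libraries. The test was the quasi-likelihood F-test in edgeR 4.0.16 (R 4.3.3) with TMM factors and the group alone, two-sided, with Benjamini-Hochberg adjustment over 13168 genes and a threshold of 0.05. The standard error was taken as the size of the log2 fold change divided by the square root of F. Library sizes for TMM-scaled CPM and the test were totals over the kept genes, while levels per library scaled by library size alone used the totals of all counts. Log2 CPM used a prior count of 2. In a library, 3 counts corresponded to 0.159 to 0.198 CPM. Counts of any 2 libraries differed beyond counting error (chi-square over degrees of freedom of 8.13 or more).

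Any member could be named. Values in each library are given for members past the threshold, the smallest p of each family, catalytic subunits, activators and the inhibitor, and the 2 negative subunits Psmc5 and Psmd3, which were added after their values were seen. Of other lists, genes past the threshold, the smallest p and a few fixed names are given. The members and lists were chosen with earlier results of these data known. Alternatives used other scalings, filters and thresholds, DESeq2 1.42.0, limma 3.58.1, the likelihood ratio test of edgeR, a block for the replicate number, and fits without each library in turn. Leaving out the first ob/ob and second WT library together was added after the data were seen. The statistics were tested on simulated data, where 9% of 100 genes changed 1.25-fold and 72% of 100 changed 1.5-fold were called. Of 87 calls there, 6 were false. Figures were drawn with matplotlib 3.10.9.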

Additional observations from a re-analysis of the deposited data

How the results depend on the processing

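The number of members past the threshold was 4 with TMM, with the DESeq2 size factors in edgeR and without a filter. It was 0 with library size alone, with limma on the deposited normalized values plus 1 and at an adjusted p of 0.01, 2 with upper quartile factors and with a mean of at least 5 CPM, 3 with limma-voom, 9 with DESeq2, 10 with the likelihood ratio test and 25 at an unadjusted p under 0.05. Leaving out each library in turn gave 0 to 2, with 106 to 412 of all tested genes called higher. Leaving out the first ob/ob and second WT library gave 0, with 36 of 12909 tested genes called higher. In every alternative run, 0 members were lower, where 8 to 1668 of all tested genes were. With the replicate number as a block the count was 2 (Psma7 and Psmb4), and 488 of 13168 tested genes were called higher. The numbers name separate pools, and the deviations of same-numbered libraries correlated at -0.08, 0.07 and -0.02, so the samples were not treated as paired.

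The median of the members was 0.073 with library size alone and 0.15 to 0.22 with 1 library left out, against 0.19. Values near 0 changed sign in some settings. With library size alone these were Psmd2 (-0.019), Psmd12 (-0.011), Psmf1 (-0.077), Psme3 (-0.085), Psmd10 (-0.0048) and Psmg2 (-0.032). With upper quartile factors they were Psmf1 (-0.0020) and Psme3 (-0.011). Leaving out each library in turn gave -0.015 to 0.065 for Psme3, negative without the first ob/ob or the first WT library, -0.054 to 0.039 for Psmd3, positive without the second ob/ob or the second WT library, and -0.13 to 0.042 for Psmg1, positive without the first WT library. Psmg2 was -0.046 without the first ob/ob and second WT library together and up to 0.13 with 1 library left out. The cause was not tested.

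A call missed here does not show that a gene did not differ. Members under 5 CPM in WT, Psmg3 and Psmg4, had the largest standard errors, 0.17 and 0.18.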

Other observations

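The 3 members below the filter were not tested. Psma8, the alpha subunit of the testis, had 0, 0 and 1 counts in ob/ob against 2, 4 and 2 in WT. Psmb11, the beta subunit of the thymus, had 0.298 to 0.616 CPM in ob/ob against 0.563 to 0.725 CPM in WT. Psmc3ip, which acts in meiotic recombination, had 0.554 to 1.09 CPM in ob/ob against 0.691 to 1.01 CPM in WT. Summed over the 43 tested members, the libraries held 3206, 3034 and 2999 CPM in ob/ob against 2717, 2507 and 2782 CPM in WT, without overlap between the groups. Scaled by library size alone the sums overlapped, at 3138, 2809 and 2921 CPM in ob/ob against 2869, 2594 and 2862 CPM in WT.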
